A study of Rattus norvegicus with 8 samples.

Results

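The 10 genes described here are those that make, load, recycle and break down the transmitter acetylcholine in the striatum, together with the main acetylcholine receptors of that tissue. They were chosen by name, from a list drawn up with earlier results of these data known, and all 10 were found among the 17337 gene symbols of the count data. The mRNA came from the striatum of 8 wild-type male Sprague-Dawley rats. In the METH group, 4 rats had taken methamphetamine (METH) through a jugular catheter by pressing a lever, at 0.05 mg/kg per infusion, in sessions of 2 h per day over 16 days. In the saline group, 4 rats had worked for saline on the same schedule after the same food training and catheter surgery. The methods give body weight but no age. They state that 4 rats per group with a stable response in the last sessions were chosen for plasma sampling, from a larger cohort. Whether the same choice set the sequenced rats is not stated there. Catheter surgery under pentobarbital and a ketamine and xylazine injection before death were common to the groups. The time between the last session and death is not given in the sources used here.

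Acetylcholine in the striatum comes chiefly from a sparse class of large interneurons that fire tonically and pause at salient events. These cells build the transmitter from choline and acetyl-CoA with choline acetyltransferase, pack it into vesicles with a dedicated transporter, and take choline back up from the synapse after acetylcholinesterase has split the transmitter. The transmitter acts on muscarinic receptors, which couple to G proteins, and on nicotinic receptors, which are ion channels found to a large extent on dopamine terminals. Projection neurons carry muscarinic receptors, and the balance of acetylcholine with dopamine is a classical theme of striatal physiology. Because the tissue was sequenced in bulk, fewer cells of a type and less RNA per cell cannot be told apart.

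Libraries held from 18135939 to 21211920 counts. On the first principal component, which carried 26.4% of the variance, saline rats lay between -24.6 (rat 3) and -4.17. METH rats 1, 2 and 4 lay between 0.257 and 5.29, so the groups did not overlap on it. METH rat 3 lay at 39.5, on the METH side, and this library stood apart from all others. It also had the fewest genes with a read (13142) and the largest share of reads in its top 10 genes (6.06%). Projection neuron markers were abundant in every rat, summing to between 14830 and 19614 CPM (a gene's reads as a share of its library, multiplied by a fixed factor, with library sizes scaled by the TMM method of edgeR). Markers of cortical excitatory neurons summed to 79.4 CPM in saline rat 1 and to between 3.35 and 13.5 CPM in the other 7 rats. Where leaving out METH rat 3 or saline rat 1 moved the log2 fold change of a cholinergic gene by over 1.5 times, the value without that rat is given beside it.

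All 10 promoters are in the RefSeq promoter table (250 bases before to 50 bases after the gene start, assembly GRCr8, whereas the reads were aligned to rn6). Those of the 4 presynaptic genes are shown because Chat and Slc18a3 form a single locus with separate starts, the vesicular transporter gene lying inside the span of the choline acetyltransferase gene on the same strand. Capitals mark the EGR letters GCGGGGGCG and the cyclic AMP response core TGACG, searched on either strand.
Chat promoter, GRCr8 chr16:7723367-7723666, minus strand: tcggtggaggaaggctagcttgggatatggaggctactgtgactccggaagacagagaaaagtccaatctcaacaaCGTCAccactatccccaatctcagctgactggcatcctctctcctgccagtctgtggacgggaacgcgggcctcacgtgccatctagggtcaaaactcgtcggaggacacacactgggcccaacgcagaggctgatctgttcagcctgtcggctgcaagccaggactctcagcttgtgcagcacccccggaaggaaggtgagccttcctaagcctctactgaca
Slc18a3 promoter, GRCr8 chr16:7722765-7723064, minus strand: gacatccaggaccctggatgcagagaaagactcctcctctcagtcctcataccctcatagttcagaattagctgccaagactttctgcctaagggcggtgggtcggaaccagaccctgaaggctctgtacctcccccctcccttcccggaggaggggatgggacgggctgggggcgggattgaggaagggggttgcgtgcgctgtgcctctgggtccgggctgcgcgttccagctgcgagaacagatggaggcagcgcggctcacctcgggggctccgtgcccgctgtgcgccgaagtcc
Slc5a7 promoter, GRCr8 chr9:7953460-7953759, minus strand: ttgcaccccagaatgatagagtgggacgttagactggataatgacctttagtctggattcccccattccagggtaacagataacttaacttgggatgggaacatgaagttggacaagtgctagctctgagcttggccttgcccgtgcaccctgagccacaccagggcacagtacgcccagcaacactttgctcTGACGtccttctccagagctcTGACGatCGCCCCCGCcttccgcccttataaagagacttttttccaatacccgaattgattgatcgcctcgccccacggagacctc
Ache promoter, GRCr8 chr12:25050361-25050660, minus strand: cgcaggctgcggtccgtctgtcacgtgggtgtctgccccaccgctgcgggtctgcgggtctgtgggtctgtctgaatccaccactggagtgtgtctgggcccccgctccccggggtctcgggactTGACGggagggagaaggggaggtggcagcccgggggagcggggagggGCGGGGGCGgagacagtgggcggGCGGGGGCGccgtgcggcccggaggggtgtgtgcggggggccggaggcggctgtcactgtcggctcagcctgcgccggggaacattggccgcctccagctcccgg
The Slc18a3 window held none of the letters searched. The EGR letters occurred 2 times in the Ache window, with first bases at positions -78 and -55 from the start, and 1 time in the Slc5a7 window at -29 on the opposite strand. Chrm3 was the remaining member with this motif, at -79. Of all 33469 promoters in the table, 2.73% held GCGGGGGCG, against 3 of the 10 members, and TGACG stood in 21.2% of all promoters and in 5 members (Chat, Slc5a7, Ache, Chrm1 and Chrm3). GCGTGGGCG (0.544% of all promoters), the full cyclic AMP response element TGACGTCA (1.83%, which contains TGACG) and the AP-1 letters TGANTCA (7.33%) were in no member window. These matches are a description of the windows and not binding sites. Of the genes for the EGR transcription factors that read this motif, Egr1, Egr2 and Egr4 had log2 fold changes of 1.02, 2.45 and 1.66 in METH over saline rats and were called in the test described next, and Egr3 had 0.21 and was not. The 3 members with the motif, Ache, Slc5a7 and Chrm3, were not called, with log2 fold changes of 0.04, -0.28 and -0.08. Their windows held 75.0%, 53.0% and 64.0% G and C, and the share over all promoters was not matched for this. Whether EGR factors act on these genes was not tested.

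The comparison of METH with saline rats asks whether METH self-administration was accompanied by a different level of cholinergic mRNA. All 10 genes passed the filter on low counts, with 16 to 3734 reads per rat, and all had a mean log2 CPM above 1. In the edgeR quasi-likelihood test, with Benjamini-Hochberg adjustment (FDR) over the 12014 genes tested, none of the 10 was called at an FDR below 0.05. None passed an unadjusted p of 0.05, and in none did the 4 METH rats lie wholly above or below the 4 saline rats. Over all genes tested, 0.516% were called (0.449% higher and 0.0666% lower in METH rats), 11.1% had an unadjusted p below 0.05 (6.26% higher and 4.88% lower) and 6.39% showed groups that did not overlap, so that counts of 0 among 10 genes are near this background. None of the 10 was called in any of the 18 alternative fits, DESeq2 and limma-voom included. Other thresholds applied to the main fit could not add a member, since the lowest FDR of the 10 was 0.467. The median log2 fold change of the members was 0.0068, beside -0.0055 over all genes tested, and the median absolute value was 0.081 beside 0.12. What these data give is therefore the range of changes that each interval still allows.

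**Figure D1:**
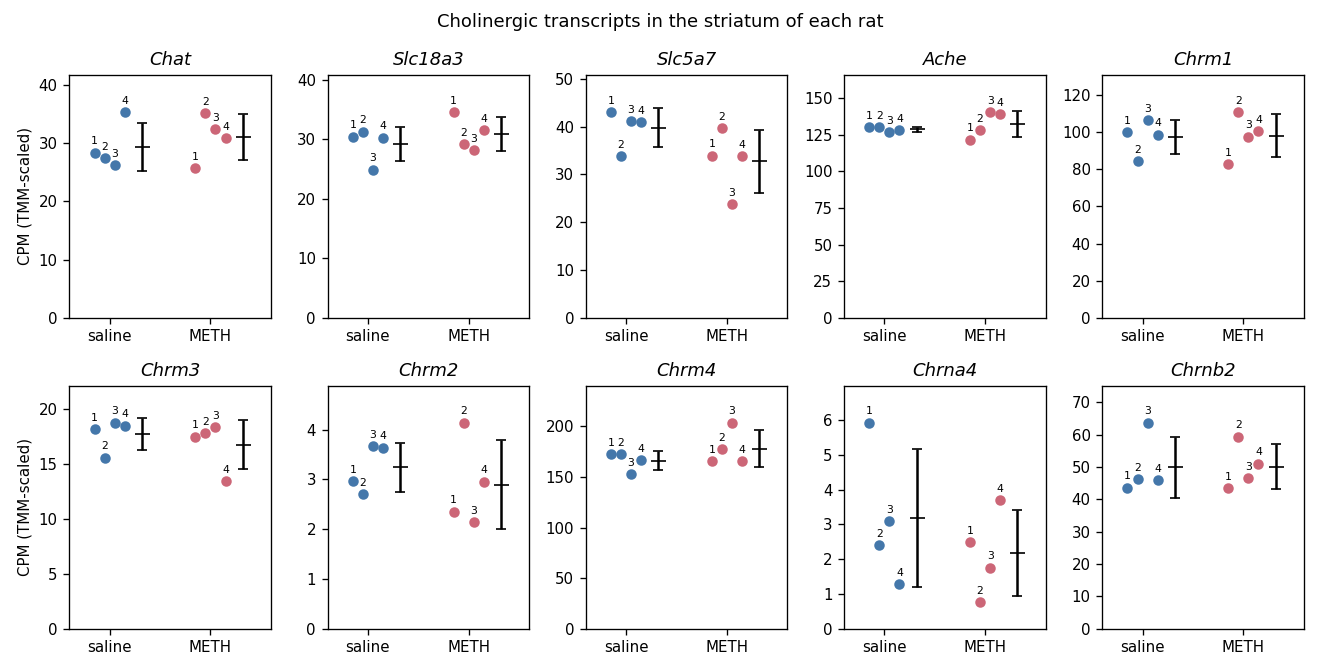
Level of each of the 10 cholinergic genes in each rat, in TMM-scaled CPM on axes that start at 0; points are rats (numbered 1 to 4 within the saline and the METH group) and the bars beside them are the mean ± SD of 4 rats. The groups overlap in all 10 panels, and the widest scatter is that of Chrna4, from 0.762 to 5.93 CPM.

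Chat encodes choline acetyltransferase, the enzyme that makes acetylcholine and the defining gene of cholinergic neurons. It was at 28.4, 27.4, 26.2 and 35.4 CPM in saline rats 1 to 4 and at 25.7, 35.1, 32.4 and 30.9 CPM in METH rats 1 to 4. The lowest value was in a METH rat and the highest in a saline rat, so the METH values fell inside and around the saline range. The means were 29.3 ± 4.13 CPM in saline and 31.0 ± 3.94 CPM in METH rats (SD, n = 4 each). In METH over saline rats this was a log2 fold change with value 0.08 and standard error 0.12 (quasi-likelihood FDR = 0.829), and its 95% interval ran from -11.9% to 26.8% relative to the saline level. An exact permutation test of log2 CPM over the 70 ways to label the rats gave a two-sided p of 0.571, where 0.0286 is the smallest value possible.

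Slc18a3 encodes the vesicular acetylcholine transporter, which fills synaptic vesicles. Its values were 30.4, 31.3, 24.9 and 30.2 CPM in saline rats and 34.6, 29.2, 28.1 and 31.6 CPM in METH rats. Saline rat 3 was the lowest of the 8 and METH rat 1 the highest, while the remaining 6 rats lay close together with the groups mixed. METH over saline rats gave 0.08 on the log2 scale, with standard error 0.11 (quasi-likelihood FDR = 0.800) and an interval from -9.57% to 23.8%, and without METH rat 3 it was 0.12. The point estimate was close to that of Chat, its host gene, and the log2 ratio of Slc18a3 to Chat differed between the groups by 0.00052 on average (exact permutation test, two-sided p = 1). The ratio varied from rat to rat, with an SD of 0.19 in saline and 0.31 in METH rats. Without METH rat 3 the difference was 0.067. How reads on the sequence shared by the nested genes were assigned is not stated, so each level carries that uncertainty.

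Slc5a7 encodes the high-affinity choline transporter, whose uptake of choline limits the rate of acetylcholine synthesis. It was at 43.1, 33.7, 41.2 and 40.9 CPM in saline rats and at 33.9, 39.6, 23.8 and 33.8 CPM in METH rats. All METH rats were below saline rats 1, 3 and 4, but saline rat 2 lay below METH rats 1, 2 and 4. Its log2 fold change, -0.28 with standard error 0.14 (unadjusted p = 0.0642, quasi-likelihood FDR = 0.467), had the lowest unadjusted p of the 10 genes, and its interval ran from -32.7% to 1.31%. The exact permutation test gave a two-sided p of 0.114. METH rat 3, the library that stood apart, had the lowest value, and without it the log2 fold change was -0.15 (quasi-likelihood FDR = 0.796). The part of that library in the result was not tested further.

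Because these 3 genes are all products of cholinergic neurons, the transporter was also set against them within each rat, a comparison chosen after the values above were seen. The log2 ratio of Slc5a7 to Chat was 0.44 ± 0.22 in saline and 0.06 ± 0.36 in METH rats (SD, n = 4 each), a difference of -0.38 (exact permutation test, two-sided p = 0.143). For Slc5a7 to Slc18a3 the ratio was 0.44 ± 0.26 and 0.07 ± 0.29, with p = 0.0857 in the same exact test. Neither difference passed 0.05 in this pair of tests, and without METH rat 3 the differences shrank to -0.21 and -0.27 (exact p = 0.257 and 0.171).

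Ache encodes acetylcholinesterase, which ends transmission by splitting acetylcholine. It was the steadiest of the 10 genes, at 130.2, 130.4, 126.7 and 128.2 CPM in saline rats and 121.8, 128.1, 140.7 and 139.1 CPM in METH rats. The 4 saline rats spanned a narrow band, and METH rats lay below, inside and above it. The SD was 1.76 CPM around a mean of 128.9 CPM in saline rats and 9.03 CPM around 132.4 CPM in METH rats. At 0.04 on the log2 scale, with standard error 0.07 (quasi-likelihood FDR = 0.868), its interval of -7.74% to 14.3% was the narrowest among the members. Without METH rat 3, the highest rat, the value was 0.0088.

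**Figure D2:**
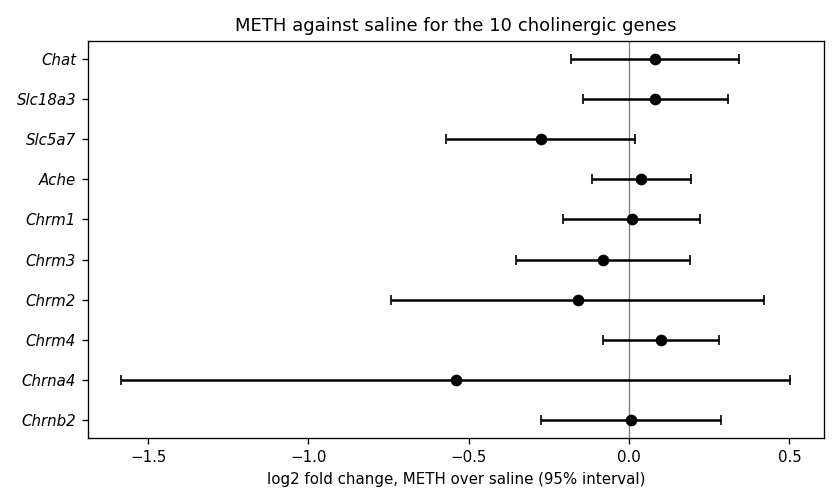
Log2 fold change of METH over saline rats (points) with 95% intervals (bars) for the 10 cholinergic genes, from the edgeR quasi-likelihood fit of 4 against 4 rats. All 10 intervals cross 0; Slc5a7 comes nearest to leaving it (upper end 0.02), Chrna4 has the widest interval, and the points of Chrm1 and Chrnb2, at 0.01 each, change sign when libraries are scaled by total counts.

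Chrm1 and Chrm3 encode muscarinic receptors that couple to Gq and phospholipase C. Chrm1 was at 100.2, 84.6, 106.7 and 98.6 CPM in saline rats and at 83.0, 111.0, 97.6 and 100.7 CPM in METH rats. Each group held a low rat and a high rat, and the means, 97.5 ± 9.31 and 98.1 ± 11.6 CPM (SD, n = 4 each), were nearly equal. METH over saline rats gave 0.01 on the log2 scale, with standard error 0.10 (quasi-likelihood FDR = 0.985) and an interval from -13.2% to 16.5%, and it took the opposite sign, -0.028, with total-count scaling. Without saline rat 1 it was 0.02. Chrm3 was at 18.2, 15.6, 18.8 and 18.5 CPM in saline rats and at 17.5, 17.9, 18.4 and 13.4 CPM in METH rats. A single low rat in each group, saline rat 2 and METH rat 4, stood below 6 rats that lay within 17.5 to 18.8 CPM. For Chrm3 the log2 fold change was -0.08, with standard error 0.13 (quasi-likelihood FDR = 0.834) and an interval from -21.8% to 14.1%, and it was 0.01 without METH rat 4 and -0.13 without METH rat 3.

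Chrm2 and Chrm4 encode muscarinic receptors that couple to Gi and lower cyclic AMP. The M4 receptor is enriched in projection neurons of the direct pathway, where it opposes the D1 dopamine receptor, and the M2 receptor is best known as an autoreceptor on cholinergic terminals. Chrm4 was at 172.7, 172.8, 152.6 and 166.7 CPM in saline rats and at 165.5, 177.7, 203.8 and 165.8 CPM in METH rats. METH rat 3 was the highest of all 8 rats and saline rat 3 the lowest, with the others mixed. For Chrm4 the difference was 0.10 on the log2 scale, with standard error 0.08 (quasi-likelihood FDR = 0.669) and an interval from -5.40% to 21.5%, and in the fits that each left out 1 rat it ranged from 0.03, without METH rat 3, to 0.13. Chrm2 had few reads, 38 to 87 per rat, and was at 2.96, 2.7, 3.67 and 3.64 CPM in saline rats and at 2.35, 4.14, 2.15 and 2.95 CPM in METH rats. METH rats 1 and 3 lay below all saline rats, METH rat 2 above them and METH rat 4 among them. On the log2 scale Chrm2 differed by -0.16, with standard error 0.27 (quasi-likelihood FDR = 0.849), and at this depth the interval reached from -40.2% to 33.9%. The value was -0.04 without METH rat 3 and -0.39 without METH rat 2.

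Chrna4 and Chrnb2 encode the subunits that combine into the most common high-affinity nicotinic receptor of the brain. Chrnb2 was at 43.5, 46.2, 63.7 and 45.8 CPM in saline rats and at 43.3, 59.4, 46.4 and 51.0 CPM in METH rats. Saline rat 3 was high in a group of otherwise close values, and the METH rats spread across the same range. On the log2 scale the difference was 0.01, with standard error 0.13 (quasi-likelihood FDR = 0.993) and an interval from -17.3% to 21.9%, with a sign that turned under total-count and upper-quartile scaling and in 5 of the 8 fits without 1 rat. It was 0.04 without METH rat 3 and -0.05 without saline rat 1.

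Chrna4 was the most variable member. It had 108, 48, 64 and 27 reads in saline rats and 51, 16, 31 and 70 reads in METH rats, or 5.93, 2.40, 3.09 and 1.28 CPM against 2.5, 0.762, 1.75 and 3.69 CPM. The highest rat was 7.78 times the lowest, and rats of the 2 groups alternated along the scale. The coefficient of variation was 62.5% in saline and 56.8% in METH rats, where counting error alone at the mean count would give 13.9%, and the biological coefficient of variation estimated by edgeR stood at percentile 97.8 of all genes tested. Between groups it differed by -0.54 on the log2 scale, with standard error 0.48 (quasi-likelihood FDR = 0.694) and an interval from -66.6% to 41.7%. The value rested on saline rat 1: without it the log2 fold change was -0.05 (quasi-likelihood FDR = 0.978).

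Saline rat 1 was also the rat with the high cortical excitatory neuron markers. All 5 of these markers had reads in the data, and the single one that passed the filter, Slc17a7 (a vesicular glutamate transporter; log2 fold change -1.54, quasi-likelihood FDR = 0.509), was at 65.8 CPM in that rat and at 3.12 to 12.2 CPM in the others. Neurod6, Neurod2 and Tbr1 had 0 or 1 read in the lowest rat and at most 74 in the highest. METH rat 2, second in cortical markers with a sum of 13.5 CPM, was the lowest of the 8 rats in Chrna4. The part of cortical RNA in the level of Chrna4 was not tested.

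**Figure D3:**
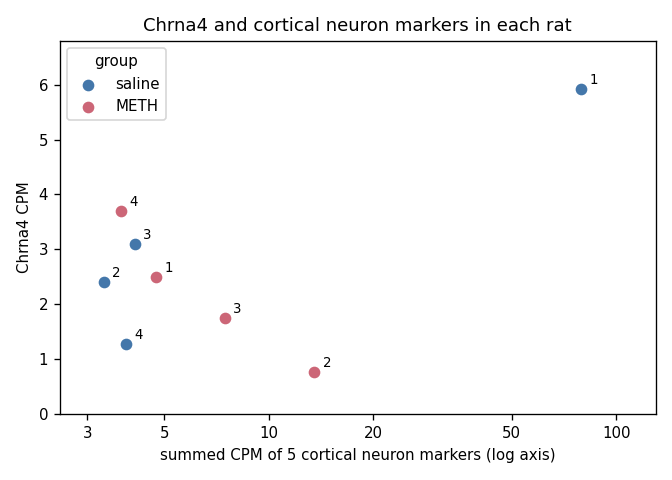
Chrna4 level (CPM, vertical axis) against the summed level of 5 cortical excitatory neuron markers (CPM, horizontal log axis) in each rat, numbered within the saline and METH groups. Saline rat 1 lies alone at 79.4 CPM of markers and 5.93 CPM of Chrna4, and METH rat 2, next in markers at 13.5 CPM, has the lowest Chrna4.

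Variation between rats of the same group was larger than counting error for most members. Within groups the coefficient of variation was 14.1% (saline) and 12.7% (METH) for Chat, 10.01% and 9.28% for Slc18a3, and 10.3% and 20.1% for Slc5a7, where counting error at their mean counts would give 4.09%, 4.10% and 3.72%. Ache in saline rats, at 1.37%, was the single case below its counting error of 1.97%. By the dispersion that edgeR estimated for each gene, Ache was at percentile 3.45 of all genes tested, Chrm4 at 16.6, Chrm1 at 31.9, Slc18a3 at 38.2 and Chat at 50.8. Chrnb2 was at 55.4, Slc5a7 at 58.4 and Chrm2 at 84.1.

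**Figure D4:**
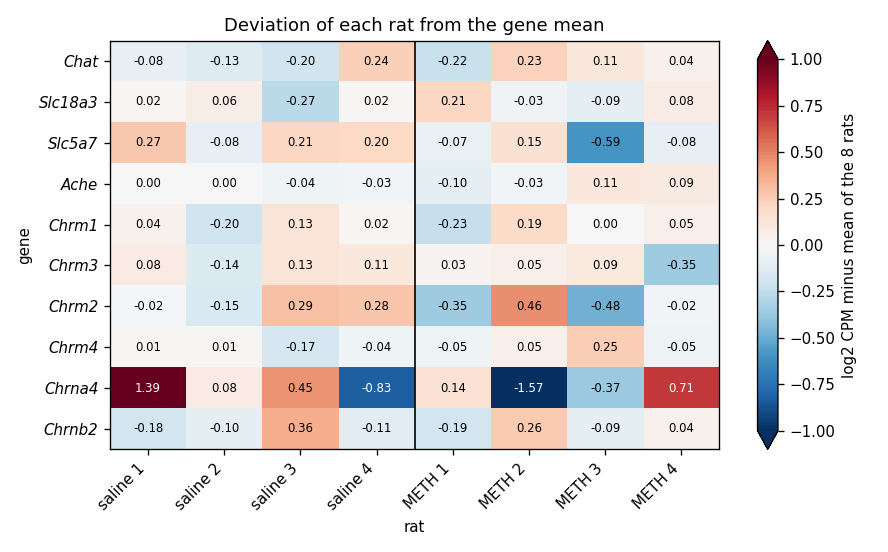
Log2 CPM of each member in each rat minus the mean of the 8 rats; columns are rats, rows are genes, and the colour scale stops at -1 and 1. The deviations of Chat, Slc18a3 and Slc5a7 do not line up by rat: METH rat 3 is at -0.59 for Slc5a7 and 0.11 for Chat, and saline rat 3 is at -0.27 for Slc18a3 and 0.21 for Slc5a7.

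Whether the presynaptic genes vary together from rat to rat was examined over the 6 pairs among Chat, Slc5a7, Slc18a3 and Ache across all 8 rats. Chat and Slc18a3, the nested pair, gave Pearson's r of -0.08 and Spearman's rho of -0.33 (exact permutation p = 0.854 and 0.428). Chat and Slc5a7 gave r of -0.06 and rho of -0.05 (exact permutation p = 0.895 and 0.935), and Slc5a7 and Slc18a3 gave -0.09 and -0.21 (exact permutation p = 0.796 and 0.619). The pair farthest from 0 was Slc5a7 and Ache, with r of -0.61 and rho of -0.57 (exact permutation p = 0.111 and 0.151). For Chat and Ache r was 0.39 and rho 0.40 (exact permutation p = 0.340 and 0.327), and for Slc18a3 and Ache -0.18 and -0.02 (exact permutation p = 0.684 and 0.977). Adjusted over the 6 pairs, the lowest p was 0.666 for r and 0.856 for rho, both from exact permutation.

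With the 2 rats farthest from the median of the first gene left out, as a check, r became 0.97 for Chat and Ache without saline rat 4 and METH rat 2 (exact permutation p = 0.00278, adjusted p = 0.0167 over the 6 pairs). It became -0.65 for Chat and Slc5a7 without the same rats and -0.76 for Slc5a7 and Slc18a3 without saline rat 1 and METH rat 3 (adjusted exact p = 0.272 and 0.0833). For Chat and Slc18a3, Slc5a7 and Ache, and Slc18a3 and Ache it was -0.08, -0.26 and -0.19. None of the 6 relations held at an adjusted p below 0.05 both with and without the far rats. The 5 genes whose log2 CPM followed Chat most closely over the 8 rats were Naa10 (r = 0.93), Glt8d1 (0.91), Nlrx1, Etnk1 and Ska3 (0.90 each), as a description only, since high values arise among so many genes over 8 points.

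Other markers of the cholinergic interneuron were measured beside the members. Of 8 such genes, all tested, none was called, 2 had positive and 6 negative log2 fold changes, and the median was -0.12. Lhx8 and Isl1, transcription factors that specify these cells, had log2 fold changes of -0.09 and -0.14. Zic4 had the lowest unadjusted p of this list (log2 fold change -0.86, unadjusted p = 0.0361, quasi-likelihood FDR = 0.421). Its mean log2 CPM of 0.87, like that of Gbx2 (0.34), was under the level of 1 needed for a call. The summed level of the 8 markers was 215.0 to 255.3 CPM in saline and 211.6 to 245.0 CPM in METH rats, overlapping over most of the range. Without METH rat 3 the median was -0.03.

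Receptor subunits outside the 10 members were mostly scarce. Of 15 listed, 8 passed the filter on low counts and 4 (Chrna6, Chrna9, Chrnb3 and Chrnd) had 0 reads in every rat. Chrna6 and Chrnb3 belong to the nicotinic receptor of dopamine terminals, whose mRNA is made in the midbrain. The 8 tested genes divided evenly, 4 with positive and 4 with negative log2 fold changes, none called, with a median of -0.01. Among them Chrm5, a muscarinic receptor, had 0.97 (unadjusted p = 0.0616, quasi-likelihood FDR = 0.466) at 12 to 91 reads per rat. Chrna7 had -0.53 (unadjusted p = 0.0950, quasi-likelihood FDR = 0.509). Chrna3, Chrnb1, Chrnb4 and Chrne were under the mean log2 CPM of 1 needed for a call. The lowest quasi-likelihood FDR of the 8 was 0.431. Chrne, a subunit known from the neuromuscular junction, had a log2 fold change of 0.99 (unadjusted p = 0.0439, quasi-likelihood FDR = 0.431) at 7 to 26 reads per rat.

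**Figure D5:**
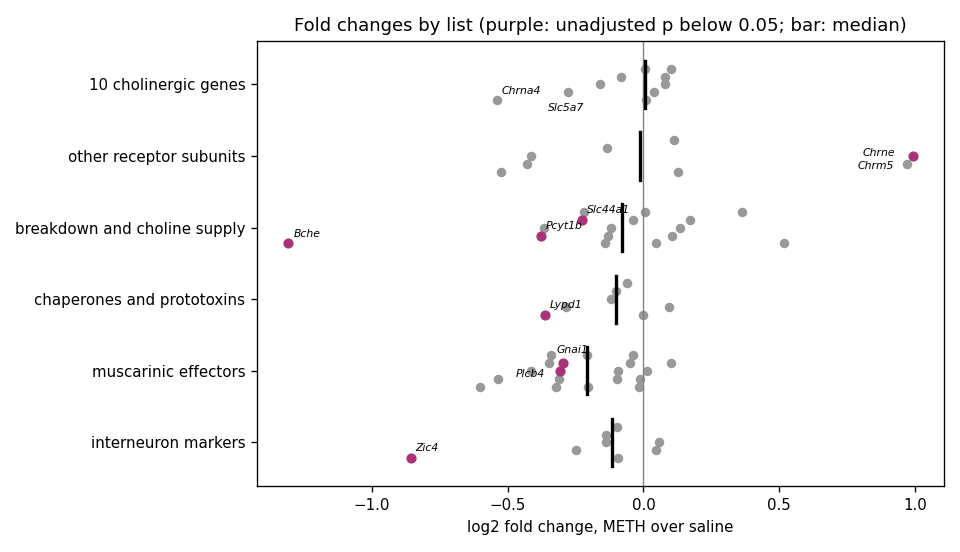
Log2 fold change of METH over saline rats for every tested gene of the 10 members and of 5 related lists; each point is a gene, purple points have an unadjusted p below 0.05, and the bar is the list median. No gene shown passed an FDR of 0.05; the members centre on 0.0068 and the muscarinic effectors on -0.21.

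Enzymes and carriers that break down acetylcholine, anchor its esterase or supply choline numbered 16, all tested and none called, with 7 positive and 9 negative log2 fold changes and a median of -0.08. Bche encodes butyrylcholinesterase, the second enzyme able to split acetylcholine, made largely by glia. It had 53, 41, 53 and 47 reads in saline rats and 34, 18, 16 and 9 reads in METH rats, or 2.91, 2.05, 2.56 and 2.22 CPM against 1.66, 0.857, 0.904 and 0.474 CPM. The groups did not overlap, with METH rats lower. This held for 2 of the 16 genes of the list, beside 6.39% of all genes tested. METH over saline rats gave -1.31 on the log2 scale, with standard error 0.38 (unadjusted p = 0.00409, quasi-likelihood FDR = 0.217), and with each rat left out in turn it lay between -1.70 and -1.08 with an FDR from 0.0803 to 0.446. Its mean log2 CPM of 0.86 was under the level of 1 needed for a call.

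Pcyt1b, an enzyme that turns choline into membrane lipid, was the other gene of this list without overlap. It was at 16.5, 15.9, 18.4 and 15.5 CPM in saline rats and 10.9, 14.9, 11.6 and 13.5 CPM in METH rats. Its log2 fold change was -0.38 (quasi-likelihood FDR = 0.307). Slc44a1, a broadly expressed choline carrier, had -0.23 (FDR = 0.431, same test). Prima1, the membrane anchor of acetylcholinesterase in brain, had -0.12 (FDR = 0.568), and Slc10a4, a vesicle protein of cholinergic neurons that is also in the interneuron list, had 0.05 (FDR = 0.896).

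Among chaperones and prototoxins, proteins that assemble nicotinic receptors or bind them at the membrane, 7 of 8 listed genes were measured, all 7 were tested and none was called. Lypd1, a prototoxin that binds nicotinic receptors and dampens their response, was at 115.5, 117.9, 127.0 and 114.5 CPM in saline rats and at 83.9, 106.1, 76.5 and 102.2 CPM in METH rats. The groups did not overlap, and METH rats 1 and 3 were lowest. Non-overlap held for 1 of the 7 genes tested here, beside 6.39% of all genes tested. The receptor subunit, muscarinic effector and interneuron marker lists held no such gene. The difference was -0.36 on the log2 scale, with standard error 0.10 (unadjusted p = 0.00317, quasi-likelihood FDR = 0.193), ranging from -0.44 to -0.28 with an FDR of 0.118 to 0.409 when each rat was left out in turn. Ric3 and Tmem35a (listed as Tmem35), chaperones of nicotinic receptor assembly, had log2 fold changes of -0.12 and -0.0024, the latter with a quasi-likelihood FDR of 0.995.

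Effectors through which muscarinic receptors act, among them G protein subunits, phospholipase C isoforms, an adenylyl cyclase and potassium channels, numbered 19. None was called, and 17 of the 19 had negative log2 fold changes, with a median of -0.21 beside -0.0055 over all genes tested. Plcb4 and Gnai1 passed an unadjusted p of 0.05 (0.0229 and 0.0228), with log2 fold changes of -0.31 and -0.30 and an FDR of 0.373 each in the quasi-likelihood test. Kcnq3, a potassium channel subunit of the current that muscarinic receptors close, had -0.42 (FDR = 0.463). The median depended on single rats: it was -0.12 without METH rat 3 and -0.11 without saline rat 3, with 16 and 15 genes then negative, and the part of these rats was not tested further.

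Markers of other cells of the dissected tissue were read in the same fit. Of 6 microglial markers 1, Cx3cr1, was called (log2 fold change -0.73, quasi-likelihood FDR = 0.0408), beside 0.516% of all genes tested. The microglial markers had 1 positive (C1qa at 0.11) and 5 negative log2 fold changes, with a median of -0.22. Csf1r had -0.22 (FDR = 0.398). Of 5 endothelial markers none was called, all 5 had negative log2 fold changes, and Tek and Flt1 passed an unadjusted p of 0.05 (log2 fold changes -0.34 and -0.21). The summed level of microglial markers was 300.7 to 354.2 CPM in saline and 261.2 to 319.5 CPM in METH rats, and that of endothelial markers 381.6 to 550.1 and 381.1 to 409.6 CPM. Markers of basal forebrain, septum and pallidum, regions with cholinergic projection neurons of their own, summed to 60.1 to 83.0 CPM in saline and 52.6 to 64.2 CPM in METH rats, and 4 of the 5 had negative log2 fold changes, Zic2 at -0.47 (quasi-likelihood FDR = 0.307). Of the 10 projection neuron markers, 6 had positive and 4 negative log2 fold changes with a median of 0.10, none was called, and Ppp1r1b and Drd2 had 0.25 and 0.19 (FDR = 0.328 and 0.421). None of the 6 oligodendrocyte and 5 astrocyte markers was called, with Cnp at -0.13 among the former. The astrocyte markers had 2 positive (Gfap at 0.40 and Aldh1l1 at 0.21) and 3 negative log2 fold changes, with a median of -0.04, and the oligodendrocyte markers 2 positive and 4 negative, with a median of -0.08. Choroid plexus markers summed to 3.95 to 5.55 CPM in saline and 5.62 to 8.91 CPM in METH rats, without overlap. Of these 4 markers 2 were tested and none was called, with log2 fold changes of 0.79 for Clic6 and 0.45 for Folr1 (quasi-likelihood FDR = 0.412 and 0.525). The log2 fold change was -0.02 for Tcf7l2, the single habenula and thalamus marker tested. The defining habenula and thalamus markers Slc17a6, Gpr151 and Lhx9 had at most 13 reads in any rat. The part of these cell types in the levels of the cholinergic genes was not tested.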

How the data were processed

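Striatal mRNA of 8 rats, 4 METH and 4 saline, was captured by its poly(A) tail and sequenced. The authors removed adapters (cutadapt 1.18), mapped reads to the rn6 genome (STAR 2.7.0e) and assigned them to genes with featureCounts (Subread 1.6.4); versions are from the submitters' processing notes and the methods. They deposited raw counts per gene symbol, without normalization, in 1 column per rat, and columns were matched to rats by group and number. Annotation, strand setting and treatment of multi-mapped reads are not given in the sources used here, so overlapping genes are uncertain.

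Tests ran in edgeR 4.0.16 under R 4.3.3, and alternatives also in DESeq2 1.42.0 and limma 3.58.1. Genes passed filterByExpr (minimum count 10), libraries were scaled by TMM (factors 0.956 to 1.018), and the quasi-likelihood F-test was used on all 12014 genes that passed. A call needed an FDR below 0.05 and a mean log2 CPM above 1. Some genes of the related lists were under that level, but without it the calls over all genes still numbered 62. The methods name edgeR for miRNAs and no test for genes. Log2 CPM in permutation tests and correlations had a prior count of 2. The standard error is the absolute log2 fold change divided by the square root of F, and intervals are 95% intervals from it. At this depth 3 reads correspond to 0.142 to 0.169 CPM. Within a group, no pair of rats was as alike as repeat counts of a single library would be (chi-square over its degrees of freedom, 10.4 to 28.6). The fit was also run on simulated data whose planted changes were larger than that of any member. That run therefore does not show whether changes of the size seen in the members would be found.

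The genes and lists were chosen with earlier results of these data known. The text names the 10 members, in each related list the genes with an unadjusted p below 0.05 or otherwise the 2 with the largest absolute log2 fold change, and the 5 genes most like Chat. Further genes (Lhx8, Isl1, Gbx2, Chrm5, Chrna7, Ric3, Tmem35a, Prima1, Slc10a4, Kcnq3, C1qa, Folr1, Egr1, Egr2, Egr3, Egr4 and markers with few reads) were chosen after their values were seen. Alternatives were other tests, scalings, filters, thresholds and dispersion, each rat left out, the rat number as a block, and a prior count of 0.5. Gene lengths of rn6 transcripts were not used here, so levels of different genes are not compared. Some genes that the naming rule covers are not reported here. Promoter sequences are from RefSeq, assembly GRCr8, matched by symbol.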

Additional observations from a re-analysis of the deposited data

Results flagged for a closer look

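In 20 groups of 4 rats (10 genes in saline and in METH rats), the distance of an end value from the next value was divided by the full range of the 4 rats, in log2 CPM. In 3 groups the share was above Dixon's 95% value of 0.829, where chance alone flags about 1 in 20 groups. Slc18a3 was low in saline rat 3 (24.9 CPM against 30.2 to 31.3 in the other saline rats, share 0.851). Chrnb2 was high in the same rat (63.7 CPM against 43.5 to 46.2, share 0.841). Chrm3 was low in METH rat 4 (13.4 CPM against 17.5 to 18.4, share 0.851). Saline rat 3 was thus the distant rat for a gene of cholinergic neurons and for a nicotinic subunit, in opposite directions.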

How the results depend on the processing

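None of the 10 genes was called under any alternative, and the log2 fold changes of Chat, Slc18a3, Ache and Chrm4 stayed positive and those of Slc5a7, Chrm2 and Chrna4 negative in all 18 alternative fits. Chrm1 changed sign with total-count scaling (-0.028) and with a rat left out (-0.057 to 0.080), Chrm3 with a rat left out (-0.14 to 0.011), and Chrnb2 with total-count (-0.030) and upper-quartile scaling (-0.00099) and with a rat left out (-0.087 to 0.15). Total-count scaling moved the median of all genes from -0.0055 to -0.041. With a rat left out, Slc5a7 ranged from -0.38 to -0.15 and Chrna4 from -0.92 to -0.054. Centred on group means, r became 0.092 for Chat and Slc5a7 and 0.11 for Slc5a7 and Slc18a3, and without the 2 far rats 0.97 for Chat and Ache; the cause was not tested. Over all genes, 62 calls (54 higher, 8 lower) became 184 (137 and 47) with DESeq2, 168 (130 and 38) with the exact test and 170 (131 and 39) with the likelihood ratio test of edgeR; with every gene that had at least 1 count, 13 were lower. With a rat left out, calls ranged from 37 (without saline rat 2) to 70, higher genes from 35 to 66 and lower genes from 2 to 9. Same-numbered rats are different animals whose deviations from the group means correlated between -0.20 and 0.036, and 2 of 8 rats correlated best with their own number; a replicate block left 37 calls, 35 of them higher and 2 lower, and no call of a member changed. List medians without each rat, ratios within rats and the ranges of Bche, Lypd1 and Pcyt1b were added after the values were seen; the median of the other receptor subunits ranged from -0.15 to 0.076 and changed sign without METH rat 1. Chrm2 and Chrna4 had as few as 38 and 16 reads in a rat. Counting error at the mean count was 12.8% for Chrm2, beside a coefficient of variation of 15.03% in saline and 31.0% in METH rats, while for Chrna4 the spread between rats far exceeded the counting error. The wide intervals of these 2 genes give the changes that 4 rats in each group do not exclude. The size of change that this design could detect was not computed.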
